A study of Mus musculus with 8 samples.

Results

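RANK-Fc given before a tumour piece was passaged was set against RANK-Fc given only afterwards, in 6 of the 16 tumours that this series measured. All 6 were passage 2 tumours. In 3 of them, labelled FC_CT or Fc_CT and called here earlier-only, the labels name RANK-Fc as neoadjuvant treatment (animals c608, c603 and c609, tumours 1 to 3). In the other 3, labelled CT-FC, CT_Fc or CT_FC and called current-only, the labels name RANK-Fc as adjuvant treatment (animals c633, c635 and c646, tumours 1 to 3). The codes were read to mean that neoadjuvant treatment took place in passage 1, which the labels do not spell out. Both arms carried an orthotopic MMTV-PyMT mammary tumour piece in wild-type FVB mice, and the stated dose of RANK-Fc was 10 mg/kg by intraperitoneal injection 3 times per week. For comparison, passage 2 also held 2 controls labelled CT_CT (animals c642 and c641) and 3 tumours with RANK-Fc in both periods labelled FC_FC, Fc_Fc or Fc_FC (animals c607, c606 and c626). In this model the mouse mammary tumour virus promoter drives the polyoma middle T oncogene in mammary epithelium, and the host keeps its own immune cells and stroma. The labels do not tie a passage 2 piece to the passage 1 tumour it came from, so pieces of 1 arm may share a donor tumour. Every p-value measures only the spread between the tumours of this series. In the main fit that spread was estimated over all 16 tumours, which include 2 controls and 3 RANK-Fc tumours of passage 1.

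RANK, the receptor encoded by Tnfrsf11a, is activated by the cytokine RANKL and signals through TRAF adaptors to NF-kB. RANK-Fc joins the outer part of the receptor to an antibody tail and takes up RANKL before it reaches the cell. In the mammary gland, progesterone raises RANKL in hormone-sensing cells, and RANKL then drives neighbouring progenitors to divide and restrains milk secretion, whose genes are switched on by prolactin through STAT5.

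Each array carried 2 tumours, 1 in Cy5 and 1 in Cy3, and no earlier-only tumour shared an array with a current-only one. Earlier-only tumours 1 and 3 were in Cy5 and tumour 2 in Cy3, whereas current-only tumour 2 was in Cy5 and tumours 1 and 3 were in Cy3. Values are log2 normalised intensities, on which 1 unit is a doubling, and a difference is the fitted mean of the earlier-only arm minus that of the current-only arm with dye and array allowed for, given with its standard error (SE). It can therefore depart from the plain difference of the values quoted. Between 48.7% and 55.7% of spots were well above background in these 6 tumours, and 14147 genes were tested with limma. The 8 markers of mammary tumour epithelium were measured in every tumour, with a mean level of 12.98 to 13.20 in the earlier-only arm and 13.08 to 13.34 in the current-only arm.

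The tumours differed from each other in ways the arms do not explain. Across genes, current-only tumour 1 correlated with earlier-only tumours 1 to 3 at 0.985, 0.992 and 0.987. It was about as close to the 2 controls (0.988 and 0.989) and to the first tumour treated in both periods (0.990). Current-only tumours correlated with each other at 0.974 to 0.981 and earlier-only tumours at 0.983 to 0.989. Current-only tumour 1 was the tumour of its arm nearest to the earlier-only mean for 45.9% of genes, against 28.1% and 26.1% for tumours 2 and 3. In the other direction, earlier-only tumour 2 was nearest to the current-only mean for 38.4% of genes. Current-only tumour 3 had the highest fibroblast marker mean (12.20, against 10.50 and 10.33 in the other current-only tumours), and earlier-only tumour 1 had 11.37 against 10.19 and 10.75. The same pair had skeletal muscle marker means of 8.39 and 9.20, whereas the other 4 tumours lay between 7.16 and 7.28. These are bulk tumours, in which fewer cells of a type and less RNA per cell cannot be told apart.

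Of 14147 genes, 3 passed the limma test at an adjusted p under 0.05 (0.0212% of genes tested). Pip and Nrg2 were higher in earlier-only tumours (0.0141%) and Lcn10 was lower (0.00707%). At an unadjusted p under 0.05 there were 949 higher genes (6.71%) and 966 lower genes (6.83%). The fitted mean was higher in the earlier-only arm for 47.1% of all genes and lower for 52.9%, the background for the counts of list members below. The 3 earlier-only tumours all lay above the 3 current-only tumours for 1030 genes (7.28%), and all below for 1009 (7.13%).

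**Figure D1:**
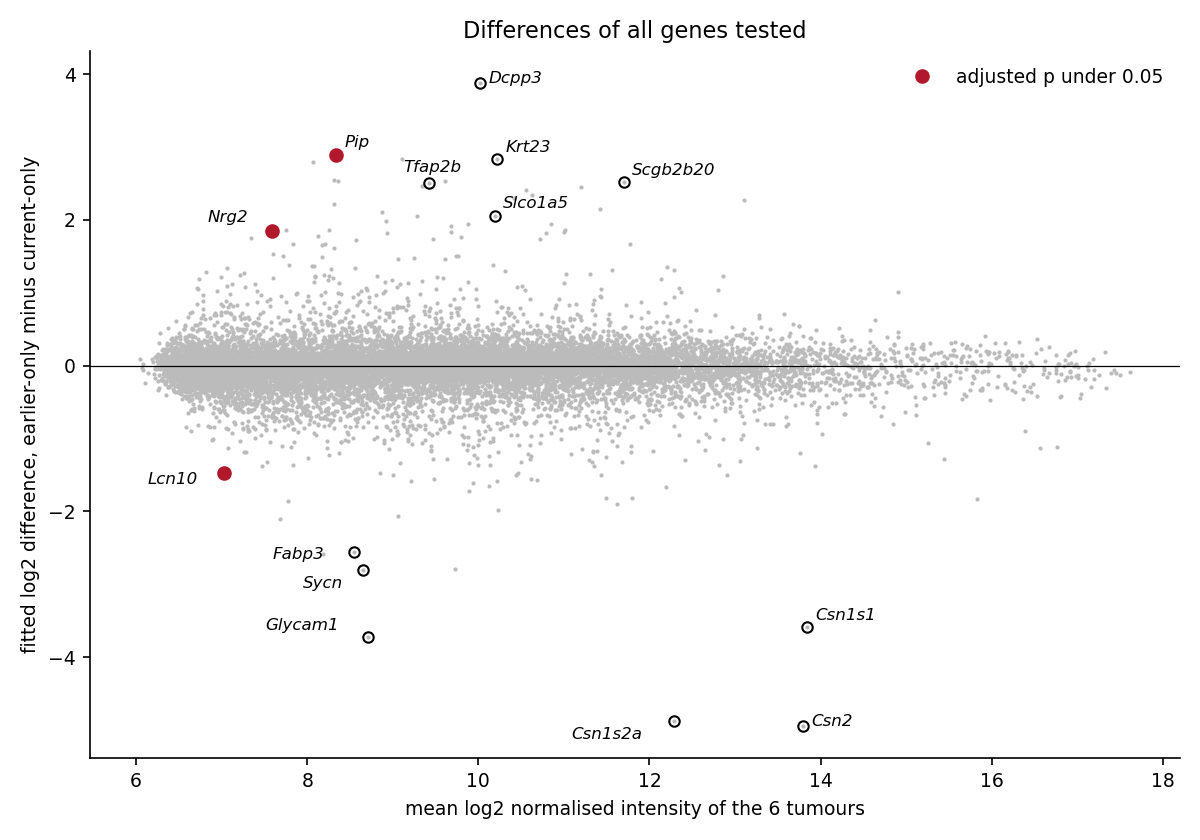
Fitted log2 difference of each of the 14147 genes (vertical axis, earlier-only minus current-only) against its mean log2 normalised intensity over the 6 tumours (horizontal axis). Red points are the 3 genes with an adjusted p under 0.05, Pip, Nrg2 and Lcn10, and open circles are other genes described in the text, of which Csn2 and Csn1s2a have the lowest differences and Dcpp3 the highest.

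Pip encodes prolactin-induced protein, a small protein secreted by salivary, lacrimal and sweat glands and by apocrine breast epithelium. Its level was 9.77, 10.01 and 9.10 in the earlier-only tumours and 7.57, 6.61 and 6.96 in the current-only tumours. Every earlier-only tumour lay above every current-only tumour, and 1 of the latter was not well above background. The difference was 2.89 ± 0.39 (SE, n = 3 and 3), a 7.40-fold higher level with an adjusted p of 0.0331 from limma. The controls had 5.95 and 6.58, and tumours with RANK-Fc in both periods had 10.89, 11.10 and 11.97. The order of the means was both periods, earlier-only, current-only and control. The last 2 groups did not overlap, although the lowest current-only tumour lay just above the higher control. Against the controls Pip was 3.49 ± 0.42 higher in earlier-only tumours, the only gene of 14147 to pass that comparison (0.00707%, adjusted p = 0.0248), and differed by 0.61 ± 0.42 in current-only tumours, where 0 genes passed (0%).

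Nrg2 encodes neuregulin 2, a growth factor of the EGF family that binds ERBB receptors. It was measured at 8.79, 8.52 and 8.05 in earlier-only tumours and at 7.24, 6.36 and 6.57 in current-only tumours. The arms did not overlap, and only 1 current-only tumour was well above background. The difference was 1.85 ± 0.23 (3.62-fold, adjusted p = 0.0312). A second probe for Nrg2 gave a difference of 0.13, so the call rests on 1 of the 2 probes. Controls had 6.57 and 6.75, and tumours treated in both periods had 7.35, 7.69 and 8.10.

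Lcn10 belongs to the lipocalins, small secreted carriers of lipophilic molecules, and is best known from the epididymis. It was not well above background in any earlier-only tumour, at 6.22, 6.32 and 6.36, and was so in all current-only tumours, at 7.42, 7.99 and 7.88. A gene entered the test when every tumour of at least 1 group was well above background. Within passage 2, Lcn10 met this only through the current-only arm, where it was high, so its call may partly follow from that filter. The current-only mean of 7.76 against the earlier-only mean of 6.30 made it at least 2.76-fold lower in the earlier-only arm (fitted difference -1.48 ± 0.19, adjusted p = 0.0312). That bound sets the current-only mean against the higher of the detection floor and the measured signal in each earlier-only tumour. Controls had 6.48 and 6.58 and tumours treated in both periods 6.52, 6.58 and 6.29, so that all 8 passage 2 tumours outside the current-only arm lay below it. Lcn10 differed from the controls by 1.25 ± 0.20 in current-only tumours, which missed the threshold (adjusted p = 0.290).

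The 250 bases before the RefSeq start sites of Pip and Lcn10 are printed because both hold the letters TTCNNNGAA more than once. This palindrome, the same on both strands, is the core of the sites that STAT proteins bind. At least 1 copy stood in 7.18% of the 27025 windows of this length, 1 for each gene symbol, and in 6.18% of those of the genes tested. The share with more than 1 copy was not counted. Capitals mark the matches, which are descriptions of the letters and not evidence of binding. The Pip window is chr6:41847299-41847548 on the plus strand and the Lcn10 window chr2:25682476-25682725 on the plus strand, both of build GRCm38.p6.
Pip: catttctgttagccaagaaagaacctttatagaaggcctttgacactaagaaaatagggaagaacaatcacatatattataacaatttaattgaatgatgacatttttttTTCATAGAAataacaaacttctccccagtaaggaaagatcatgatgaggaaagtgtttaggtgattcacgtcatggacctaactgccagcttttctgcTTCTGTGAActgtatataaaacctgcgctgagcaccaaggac
Lcn10: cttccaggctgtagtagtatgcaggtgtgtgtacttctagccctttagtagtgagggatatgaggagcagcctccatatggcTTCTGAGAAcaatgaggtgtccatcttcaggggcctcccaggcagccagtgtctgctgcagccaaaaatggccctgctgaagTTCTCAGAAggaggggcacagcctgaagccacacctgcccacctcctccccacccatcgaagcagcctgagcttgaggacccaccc
In Pip the matches TTCATAGAA and TTCTGTGAA began 140 and 42 bases before the start, and in Lcn10 TTCTGAGAA and TTCTCAGAA began 168 and 86 bases before it. RefSeq's table held no window for Nrg2.

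The 3 calls held without current-only tumour 1 and were lost without any 1 of the other 5 tumours. Without current-only tumour 1 they stood among 204 genes that passed (1.44%), 75 higher (0.53%) and 129 lower (0.912%) in the earlier-only arm. Without any other single tumour no gene passed, and 1163 to 1794 genes had an unadjusted p under 0.05. Current-only tumour 1 was the tumour of its arm most often nearest to the earlier-only mean. A pass without it, here and below, is therefore a description and adds no support for a gene. The differences held their direction in every one of these fits. They ran from 2.66 to 3.15 for Pip, 1.63 to 2.03 for Nrg2 and -1.62 to -1.37 for Lcn10. Their sizes varied more across the other settings, as given in the last section. Within each dye, where only 1 or 2 tumours of an arm remain and no test was run, Pip differed by 2.83 in Cy5 and 2.74 in Cy3, Nrg2 by 2.06 and 1.61, and Lcn10 by -1.70 and -1.33.

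**Figure D2:**
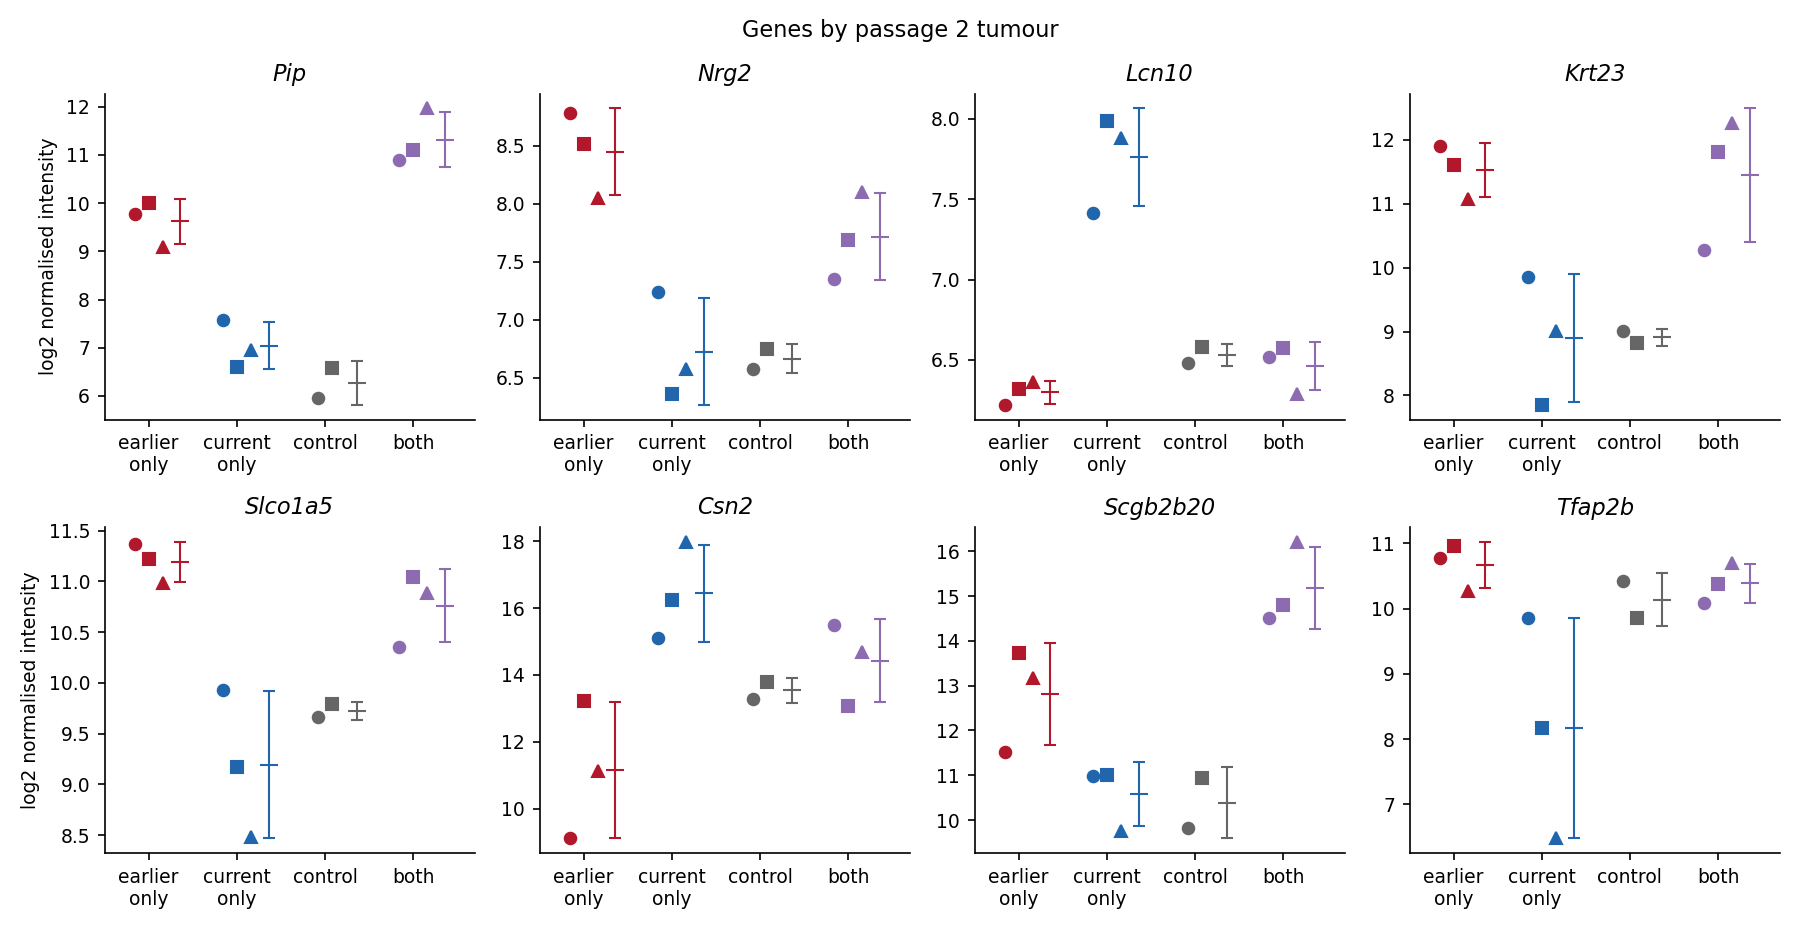
Log2 normalised intensity of 8 genes in each passage 2 tumour. Circles, squares and triangles are tumours 1, 2 and 3 of a group, and the bar beside them is the mean with 1 SD; in all 8 panels the earlier-only points lie clear of the current-only points.

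The next genes by p-value were higher in all 3 earlier-only tumours and missed the threshold. Slco1a5, an organic anion transporter, stood at 11.37, 11.22 and 10.98 in earlier-only tumours and at 9.93, 9.17 and 8.48 in current-only tumours, a difference of 2.06 ± 0.31 (adjusted p = 0.0571). Krt23, a type I keratin, stood at 11.90, 11.60 and 11.08 against 9.85, 7.85 and 9.01, a difference of 2.84 ± 0.44 (adjusted p = 0.0658). In both genes the lowest earlier-only tumour lay at least 1 unit above the highest current-only tumour. Tumours treated in both periods had 10.36, 11.04 and 10.88 for Slco1a5 and 10.27, 11.81 and 12.26 for Krt23, above the controls, which had 9.66 and 9.79 and 9.003 and 8.81.

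Mdfi, which holds myogenic transcription factors in the cytoplasm, differed by 0.94 ± 0.14 (adjusted p = 0.0571), and Ghr, the growth hormone receptor, by 0.89 ± 0.14 (adjusted p = 0.0658). Slc39a8, a zinc importer, differed by 1.62 ± 0.27, Sorl1, a sorting receptor, by 1.17 ± 0.19 and Tspan13, a tetraspanin, by 0.85 ± 0.14 (adjusted p of 0.0774, 0.0774 and 0.0794). Plppr4, a brain phospholipid phosphatase relative, differed by 1.498 ± 0.24 by its brighter probe and by 0.08 by the other. For 5 of these 6 genes the control mean lay nearer the current-only mean, and for Ghr the control values of 10.07 and 10.34 lay between the arms. Without current-only tumour 1, Slco1a5, Krt23 and these 6 genes all passed, with adjusted p from 0.00294 for Slco1a5 to 0.0258 for Sorl1 and Tspan13. Without any other single tumour none of them passed.

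Chadl, a chondroadherin-like matrix protein, was at 11.74, 11.13 and 11.90 in earlier-only tumours and at 9.97, 8.13 and 9.59 in current-only tumours (difference 2.30 ± 0.44, adjusted p = 0.109). Here the tumours treated in both periods had 9.17, 9.74 and 9.50 and lay with the current-only arm. Without current-only tumour 1 Chadl passed, at 2.63 (adjusted p = 0.0175), and without any other single tumour it did not. Fgg, a fibrinogen chain, had 10.65, 9.22 and 8.29 against 7.41, 6.29 and 6.51, with a difference of 2.79 ± 0.72 (adjusted p = 0.187), and only 1 of the 3 current-only tumours was well above background. Oxtr, the oxytocin receptor of myoepithelial cells, differed by 0.96 ± 0.29 (adjusted p = 0.211), and its 3 earlier-only values, 8.498, 8.66 and 8.76, lay above the current-only range of 7.33 to 8.06. Of 17 basal and myoepithelial markers measured, 12 were lower and 5 higher. Their median was -0.16, or 0.02 without current-only tumour 3. At an unadjusted p under 0.05, 3 were higher (17.6%, against 6.71% of all genes) and 0 lower.

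On the lower side the genes that came closest after Lcn10 were Fer1l4, a dysferlin-related transcript, at -1.36 ± 0.25 (adjusted p = 0.107), and Pdxk, the kinase that activates vitamin B6, at -0.80 ± 0.16 (adjusted p = 0.109). Fam170b and Sycn, the latter a protein of pancreatic secretory granules, showed a wide gap. Fam170b stood at 6.47, 7.28 and 6.81 in earlier-only and 8.34, 9.56 and 10.68 in current-only tumours (difference -2.59 ± 0.52, adjusted p = 0.109). Sycn stood at 6.75, 7.55 and 7.29 against 8.87, 10.17 and 11.25 (difference -2.80 ± 0.57, adjusted p = 0.109). The 2 genes put the 3 tumours of each arm in the same order, with current-only tumour 3 highest. Fam3c, a secreted FAM3 protein, P2ry2, a nucleotide receptor, Adam8, a surface protease, and Apln, the apelin peptide, had differences of -1.47 to -0.61, and Peg10, an imprinted gene of retroviral origin, was not well above background in any earlier-only tumour and at least 1.73-fold lower there; none of the 5 passed (adjusted p of 0.109 to 0.124). Within passage 2, Peg10 met the filter on dim probes only through the current-only arm, where it was high. Without current-only tumour 1 the lower genes of this paragraph passed with the exception of P2ry2, among them Sycn at -3.39 and Fam170b at -3.16. Without any other single tumour none of them passed.

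Milk protein genes were lower in the earlier-only arm, although none passed the test. Of 27 genes listed, 26 were measured, 24 had a lower fitted mean (92.3%, against 52.9% of all genes) and 15 had an unadjusted p under 0.05 in that direction, against 6.83% of all genes. The list also holds Elf5, Stat5a, Stat5b and Prlr, which are regulators and not milk proteins. They are counted among the lower genes, and Elf5 also among those with an unadjusted p under 0.05 and with the arms apart. The median difference was -0.59, against -0.01 over all genes tested. In 10 of the 26 every current-only tumour lay above every earlier-only tumour (38.5%, against 7.13% of all genes).

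The casein genes Csn2, Csn1s2a and Csn1s1, which encode the main proteins of mouse milk and lie in one cluster on chromosome 5, had some of the largest differences on the lower side. Csn2 stood at 9.13, 13.21 and 11.13 in earlier-only tumours and 15.09, 16.24 and 17.98 in current-only tumours. Csn1s2a stood at 7.10, 11.92 and 9.92 against 13.62, 14.26 and 16.89. Csn1s1 stood at 10.53, 12.77 and 12.63 against 14.45, 15.64 and 17.04. Earlier-only tumour 1 was lowest and current-only tumour 3 highest in all 3 genes, and the arms did not overlap. The differences were -4.94 ± 1.31, -4.87 ± 1.13 and -3.59 ± 0.86, with adjusted p of 0.188, 0.161 and 0.175. The spread within an arm was wide, with an SD of 2.04 and 1.46 for Csn2. Controls lay between the arms for Csn2, at 13.28 and 13.79, and for Csn1s1, whereas for Csn1s2a they lay within the earlier-only range, at 10.76 and 11.79. Tumours treated in both periods had 15.51, 13.07 and 14.69 for Csn2. Without earlier-only tumour 1 and current-only tumour 3 together, a setting added after seeing the data, the differences were -3.40, -2.91 and -2.26. Without current-only tumour 1, Csn1s2a at -5.70 and Csn1s1 at -4.25 passed (adjusted p = 0.038 and 0.0388), as did Olah at -3.59. Without current-only tumour 3 Olah was -1.80 and Glycam1 -2.14, and neither passed.

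Glycam1, a mucin-like protein of milk, was at 6.46, 6.49 and 6.96 in earlier-only tumours, where 1 of 3 was well above background, and at 10.23, 7.49 and 14.59 in current-only tumours. The difference of -3.73 ± 1.32 (adjusted p = 0.267) came with a current-only SD of 3.58. Lalba, the alpha-lactalbumin subunit of lactose synthase, had 14.81, 14.08 and 16.24 against 16.12, 16.73 and 16.98, arms that overlap (difference -1.83 ± 0.48, adjusted p = 0.188). Olah, the thioesterase that releases medium-chain fatty acids for milk fat, differed by -2.79 ± 0.82 (adjusted p = 0.206). Elf5, a transcription factor of the milk-producing lineage, had 13.33, 13.81 and 13.84 against 14.14, 14.21 and 14.45, which do not overlap (difference -0.61 ± 0.18, adjusted p = 0.210). Prlr, the prolactin receptor, and Stat5a, which carries its signal, differed by -0.13 ± 0.17 and -0.26 ± 0.25 with overlapping arms; this pair was chosen after the values were seen.

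The windows before Csn1s1, Csn2 and Glycam1 are printed because these were the 3 of 20 milk protein genes with a window that held TTCNNNGAA (15%, against 7.18% of all windows). The windows are chr5:87665958-87666207 (plus strand), chr5:87699426-87699675 (minus strand) and chr15:103565082-103565331 (minus strand) of GRCm38.p6, each read 5′ to 3′ towards the start site, with the match in capitals.
Csn1s1: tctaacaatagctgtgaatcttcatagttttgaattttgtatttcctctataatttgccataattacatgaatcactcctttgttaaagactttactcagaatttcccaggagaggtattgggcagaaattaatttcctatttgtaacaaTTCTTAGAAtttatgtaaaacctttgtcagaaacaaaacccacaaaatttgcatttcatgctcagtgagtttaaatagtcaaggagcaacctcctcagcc
Csn2: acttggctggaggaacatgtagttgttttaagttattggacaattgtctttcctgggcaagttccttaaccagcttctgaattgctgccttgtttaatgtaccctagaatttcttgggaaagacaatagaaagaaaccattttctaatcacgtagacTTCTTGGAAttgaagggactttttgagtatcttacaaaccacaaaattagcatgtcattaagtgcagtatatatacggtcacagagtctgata
Glycam1: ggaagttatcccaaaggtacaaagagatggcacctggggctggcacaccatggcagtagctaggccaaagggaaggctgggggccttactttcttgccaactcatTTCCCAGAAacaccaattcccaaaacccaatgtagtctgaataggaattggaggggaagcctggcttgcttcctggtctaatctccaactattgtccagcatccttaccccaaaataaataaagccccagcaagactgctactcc
The matches were TTCTTAGAA at 100 bases before the start in Csn1s1, TTCTTGGAA at 93 in Csn2 and TTCCCAGAA at 145 in Glycam1. The window of Csn1s2a held none, and neither did those of the milk lipid genes (0 of 17). Among genes with an unadjusted p under 0.05, 7.24% of the lower and 6.42% of the higher genes with a window held it, near the share of 6.18% over all genes tested.

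Milk lipid genes followed the same direction. Of 24 measured, 18 had a lower fitted mean in the earlier-only arm, 12 of them with an unadjusted p under 0.05 (50%, against 6.83% of all genes), and none passed the adjusted test; the median was -0.38. Fabp3, a fatty acid carrier, had 7.29, 7.27 and 7.31 against 7.99, 9.81 and 11.61, and a second probe gave -2.25 beside the -2.55 ± 0.70 of the first (adjusted p = 0.194). Earlier-only tumours were nearly equal for Fabp3, and current-only tumours spanned more than 3 units. Acaca, the first enzyme of fatty acid synthesis, differed by -0.83 ± 0.21 (adjusted p = 0.187) without overlap, and Plin2, a lipid droplet coat protein, by -0.80 ± 0.21 (adjusted p = 0.187) with overlap. Fabp3 at -3.40 and Acaca at -1.02 passed without current-only tumour 1, whereas Fabp3 was -1.63 without current-only tumour 3 and did not pass. Adipocyte markers, none of which is among the milk lipid genes measured, ran the same way, with 13 of 13 measured markers lower (median -0.59, or -0.30 without earlier-only tumour 1) and tumour means of 8.23, 8.61 and 9.15 against 9.16, 9.30 and 8.49. Their part in the milk lipid differences was not tested.

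Secreted proteins typical of salivary and lacrimal glands ran the other way. Of 29 listed, 18 were measured and 16 had a higher fitted mean in earlier-only tumours; Pip passed on the higher side and Lcn10 on the lower. The median was 2.14, and in 10 of the 18 every earlier-only tumour lay above every current-only tumour, against 7.28% of all genes. Only 8 of the 18 were well above background in all 6 tumours. The others could enter through the groups in which they were high, so these counts and the median partly follow from the filter on dim probes. Without that filter 26 genes were measured and the median was 0.33, and over the 8 genes above background in all channels it was 2.14. The list mean was 10.14, 10.57 and 10.66 in earlier-only tumours, 9.60, 8.69 and 8.94 in current-only tumours, 8.67 and 8.62 in controls, and 11.19, 10.98 and 11.29 in tumours treated in both periods. The 4 groups did not overlap in this mean, although the lowest current-only tumour lay only just above the controls.

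Within that list the secretoglobins, small dimeric secreted proteins, were the largest family. Scgb2b20 stood at 11.53, 13.73 and 13.18 in earlier-only tumours and 10.99, 11.01 and 9.76 in current-only tumours (difference 2.52 ± 0.54, adjusted p = 0.126). Scgb2b27 stood at 10.26, 12.55 and 11.97 against 9.91, 9.64 and 9.005 (difference 2.41 ± 0.48, adjusted p = 0.109), and Scgb2b2 differed by 2.45 ± 0.53 (adjusted p = 0.134). Earlier-only tumour 1 was the lowest of its arm for each and lay less than 1 unit above the highest current-only tumour. Scgb1b27 differed by 2.53 ± 0.65 (adjusted p = 0.187), with 2 of 3 current-only tumours well above background. Scgb1b30 differed by 2.54 ± 0.69 (adjusted p = 0.189) by 1 probe and by 0.13 by the other. All of these lie on chromosome 7 and belong to 1 family of close copies, so a probe may read several of them, and their values are uncertain and not independent.

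In tumours treated in both periods the same secretoglobins were higher still, with 14.51, 14.81 and 16.21 for Scgb2b20 and 11.75, 12.38 and 12.64 for Scgb1b27, above every tumour of both arms. Controls had 9.82 and 10.95 for Scgb2b20, within the range of the current-only arm. The demilune cell proteins, secreted in the mouse sublingual gland, were chosen for mention after their values were seen, and Dcpp3 had the highest fitted difference of all genes. Dcpp3 stood at 11.71, 10.90 and 13.38 in earlier-only tumours and 11.04, 6.34 and 6.72 in current-only tumours, so that current-only tumour 1 lay inside the earlier-only range (difference 3.88 ± 1.42, adjusted p = 0.280), and 1 of the 3 current-only tumours was well above background. Its neighbours Dcpp1 and Dcpp2 differed by 2.83 ± 1.28 and 2.55 ± 1.20, also with overlap.

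Tfap2b, an AP-2 transcription factor of mammary luminal and other epithelia, was at 10.77, 10.96 and 10.28 in earlier-only tumours and at 9.86, 8.17 and 6.48 in current-only tumours. The difference was 2.50 ± 0.60 (adjusted p = 0.175). The controls, at 10.43 and 9.86, and the tumours treated in both periods, at 10.09, 10.38 and 10.698, lay near the earlier-only arm, and current-only tumours 2 and 3 were the low values. Without current-only tumour 1 it was 3.26 and passed (adjusted p = 0.00722), and without current-only tumour 3 it was 1.66 and did not pass; 2 of the 3 current-only tumours were well above background. The other members measured did not share this, with -0.03 ± 0.17 for Tfap2a and -0.09 ± 0.19 for Tfap2c and overlapping arms; the sign of both turned positive under median centring.

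**Figure D3:**
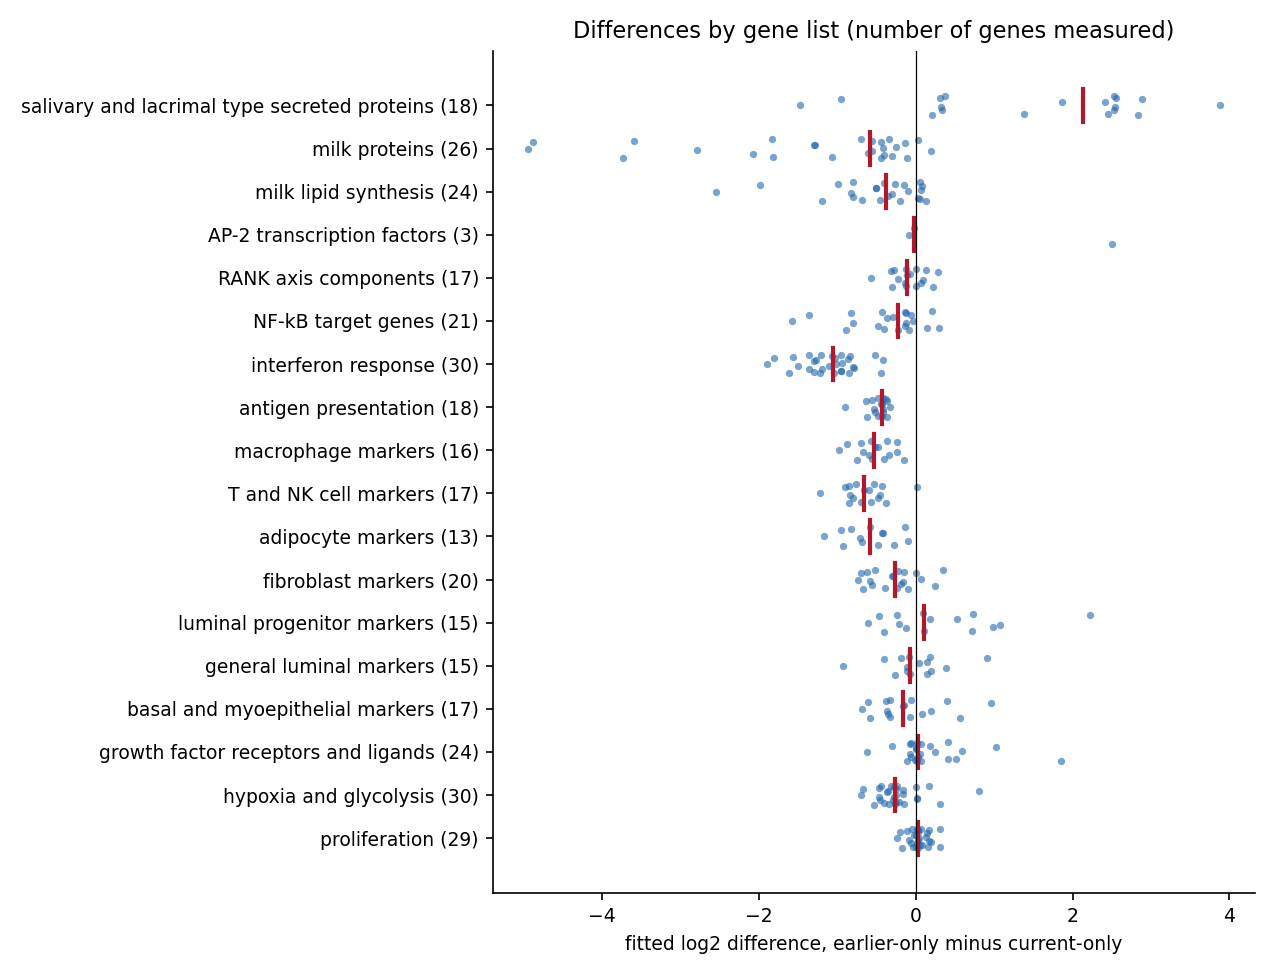
Fitted log2 difference of each measured gene in 18 gene lists (blue points, earlier-only minus current-only), with the list median as a red bar and the number of genes measured in brackets. The salivary and lacrimal type list has its median at 2.14 (0.33 without the filter on dim probes), and the interferon response list is the lowest, at -1.05.

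RANK itself had lower values in the earlier-only arm. Tnfrsf11a stood at 11.98, 11.91 and 12.17 in earlier-only tumours and at 12.31, 12.42 and 13.01 in current-only tumours, which do not overlap, but the difference of -0.57 ± 0.18 did not pass (adjusted p = 0.237) and was -0.35 without current-only tumour 3. Controls had 12.61 and 12.61 and tumours treated in both periods 12.41, 11.998 and 12.16. Tnfrsf11b, the natural decoy receptor osteoprotegerin, differed by 0.23 ± 0.38 with overlapping arms, and the gene of RANKL, Tnfsf11, was not among the genes tested. Of 17 measured components of the RANK axis 10 were lower and 7 higher, with a median of -0.11 that was 0.03 under median centring, and 1 had an unadjusted p under 0.05 (5.88%, against 6.83% of all genes). The kinase genes Ikbkb and Chuk, which release NF-kB, differed by -0.30 ± 0.14 and -0.28 ± 0.13. Of 21 measured NF-kB target genes 18 had a lower fitted mean, with a median of -0.23 that was 0.0026 without current-only tumour 2, and in none were the arms apart. Tnfaip2 differed by -0.82 ± 0.23 and the chemokine gene Ccl2 by -1.36 ± 0.48, with adjusted p of 0.199 and 0.262, and without current-only tumour 1 Tnfaip2 passed at -1.14; on leaving out another single tumour it was as near 0 as -0.56 and did not pass.

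Of 24 measured growth factor receptors and ligands, Nrg2 was the 1 that passed, and the list median was 0.02. Erbb2, a receptor of the family that neuregulins act through, had 9.68, 9.73 and 9.62 in earlier-only tumours and 9.21 in each current-only tumour. This difference of 0.51 ± 0.12 had an adjusted p of 0.161. Fgf1 differed by 1.03 ± 0.27 (adjusted p = 0.187), with earlier-only tumour 1 highest at 10.14. Fgfr3 differed by 0.01 ± 0.29 between the arms, whose values of 8.59 to 9.54 and 8.37 to 9.41 overlap. Both arms lay below the controls for Fgfr3, which had 10.14 and 10.54, with fitted differences of -1.30 ± 0.31 and -1.31 ± 0.31 that share those 2 controls and did not pass. Mgll, a lipase, lay between 11.23 and 12.34 in both arms and between 12.68 and 13.04 in the controls.

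Markers of the luminal progenitor state, the cells in which RANK signalling is best known, went both ways, and none passed. Of 15 measured 9 were higher and 6 lower, with a median of 0.11. At an unadjusted p under 0.05 there were 6 higher (40%, against 6.71% of all genes) and 1 lower (6.67%, against 6.83%), and the earlier-only tumours all lay above the others in 26.7%, against 7.28% of all genes. The lower gene was Elf5, described above with the milk genes, at -0.61 ± 0.18 without overlap. The current-only tumours all lay above in 13.3%, against 7.13% of all genes. Tspan8, a tetraspanin, had 8.63, 9.21 and 10.23 against 8.33, 6.23 and 7.24 (difference 2.22 ± 0.70, adjusted p = 0.225, 2 of 3 current-only tumours well above background), and Sox9, a progenitor transcription factor, 10.29, 10.99 and 10.83 against 10.07, 9.95 and 10.16 (difference 0.72 ± 0.21, adjusted p = 0.206). The arms are apart for both genes, by a narrow gap. Of 15 general luminal markers measured, 7 were higher and 8 lower, with a median of -0.08. Krt7, a luminal keratin, and Grhl2, an epithelial transcription factor, were higher by 0.91 ± 0.36 and 0.39 ± 0.11 in the fit, without overlap and without passing. On the lower side, the keratin gene Krt19 differed by -0.92 ± 0.46 with overlap and Muc1 by -0.40 ± 0.23 without overlap, and neither passed. Proliferation genes differed little, with 29 measured, a median of 0.03, a range of -0.24 to 0.31 and none with an unadjusted p under 0.05.

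Interferon response genes had the lowest median of any list, and no gene of it passed. All 30 measured genes had a lower fitted mean in earlier-only tumours, 10 with an unadjusted p under 0.05 (33.3%, against 6.83% of all genes), and the median was -1.05, or -1.61 without earlier-only tumour 2 and -0.66 without earlier-only tumour 3. The arms were apart for 1 of the 30 genes, Oasl1 (3.33%, against 7.13% of all genes). The list mean was 10.71, 10.87 and 9.85 in earlier-only tumours and 10.42, 12.02 and 11.33 in current-only tumours, so that current-only tumour 1 lay within the earlier-only range and tumours 2 and 3 above it. Of the 2 controls 1 lay above the earlier-only range, at 11.42, and 1 below it, at 9.79. Oasl2, an antiviral effector, had 11.17, 11.08 and 10.27 against 10.81, 13.27 and 12.34, and Irf7, the master regulator of interferon induction, 9.39, 9.79 and 8.84 against 9.34, 11.51 and 10.77. Their differences were -1.81 ± 0.68 and -1.61 ± 0.60 (adjusted p = 0.288 for each). Within Cy5 the list median was -1.81 and within Cy3 -0.08, so the size differed between the dyes. Genes of antigen presentation were lower in 18 of 18, with a median of -0.43 that was 0.27 within Cy3 and -0.09 without current-only tumour 2.

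Immune cell markers ran in the same direction as the interferon genes. Of 16 measured macrophage markers all were lower, 7 with an unadjusted p under 0.05 (43.8%, against 6.83% of all genes). Their median was -0.54, or -0.86 without current-only tumour 1 and -0.27 without current-only tumour 3. Of 17 T and NK cell markers 16 were lower, with a median of -0.66 that was 0.03 within Cy3 and -0.26 without current-only tumour 2. The arms overlapped for every one of these genes. The macrophage marker mean was 10.72, 10.31 and 10.58 in earlier-only tumours and 10.19, 11.28 and 11.35 in current-only tumours, and the T and NK cell mean was 8.46, 8.16 and 7.84 against 7.86, 9.46 and 8.37. Csf1r, the receptor that sustains macrophages, had 12.79, 12.13 and 12.48 against 12.24, 13.39 and 13.54 (difference -0.74 ± 0.25, adjusted p = 0.255). Current-only tumour 1 was the low value of its arm in both means and for Csf1r. Without it, 10 of the 16 macrophage markers passed, all lower in the earlier-only arm (0.912% of all genes passed lower in that fit), among them Csf1r at -1.08 and Cd68 at -0.98. On leaving out another single tumour none passed, and Csf1r was as near 0 as -0.46 and Cd68 as -0.48. The part of immune cells in the interferon difference was not tested.

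**Figure D4:**
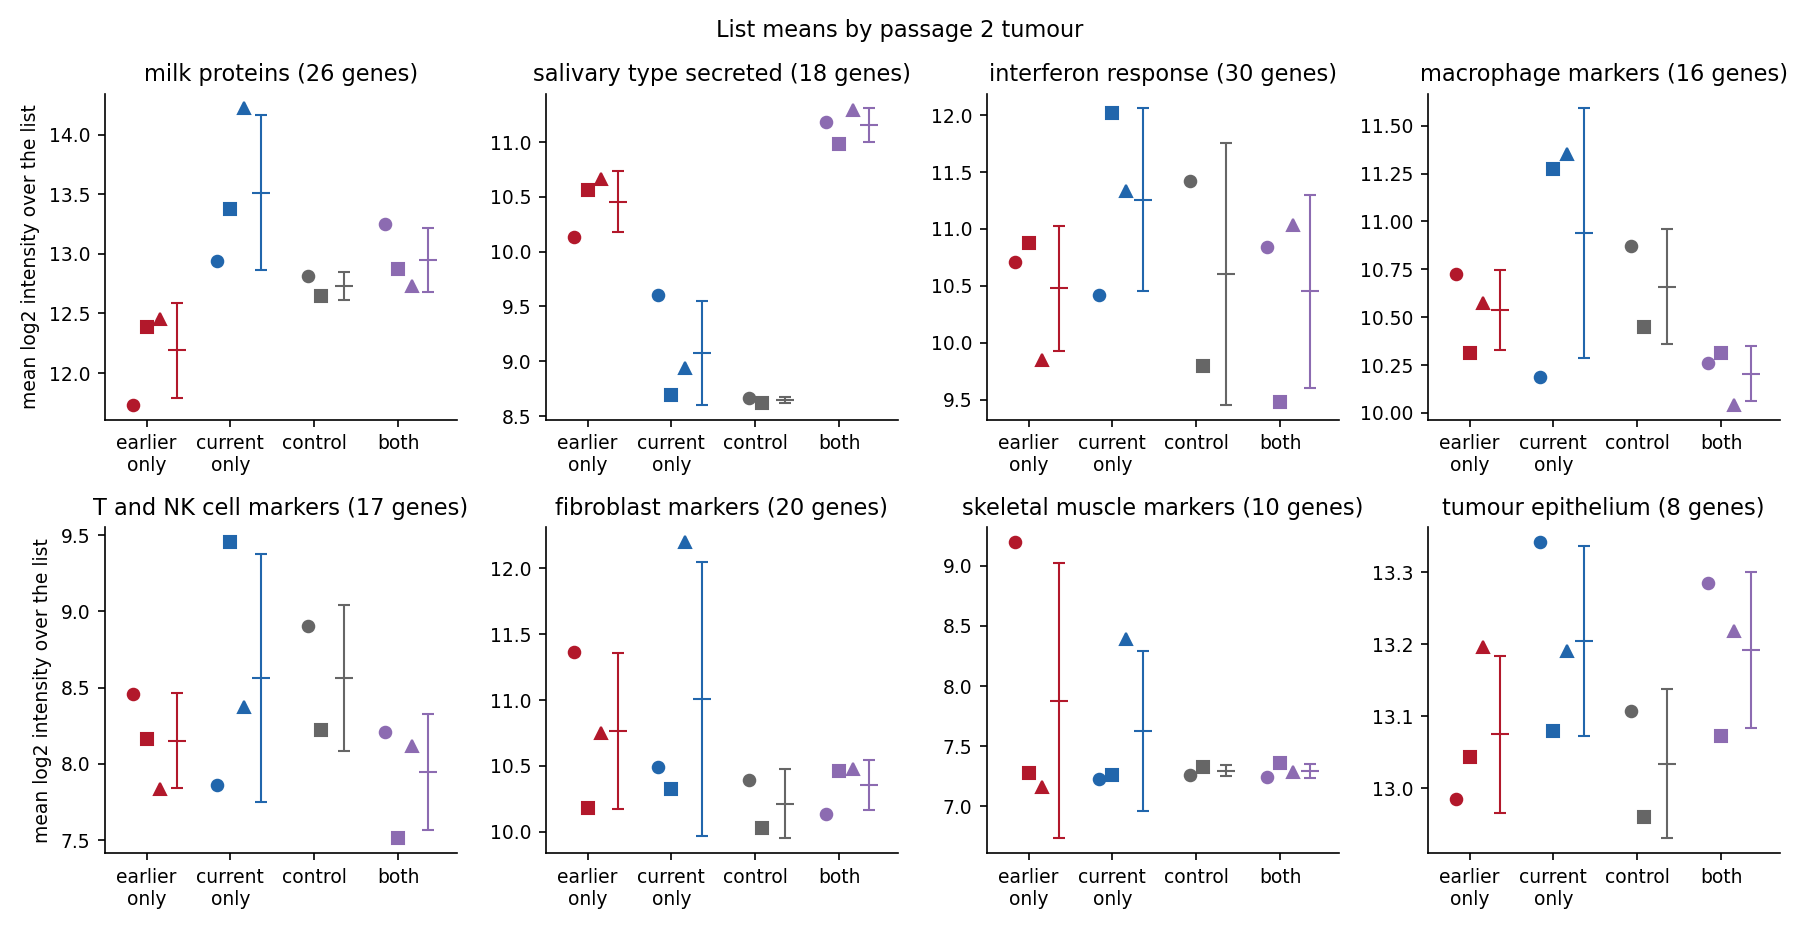
Mean log2 intensity over 8 gene lists in each passage 2 tumour (circles, squares and triangles for tumours 1 to 3, bars for mean and 1 SD). The milk protein and salivary means keep the 2 arms apart, whereas in the interferon, macrophage and T and NK cell means current-only tumour 1 lies within or below the earlier-only range, and fibroblast and muscle means are highest in current-only tumour 3 and earlier-only tumour 1.

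Among genes of hypoxia and glycolysis, 24 of 30 measured were lower (80%, against 52.9% of all genes, median -0.27). Slc2a1, the main glucose transporter, differed by -0.67 ± 0.23 (adjusted p = 0.257), whereas Car9, a hypoxia-induced carbonic anhydrase, lay higher at 10.71, 10.74 and 10.54 against 10.11, 9.92 and 9.63 (difference 0.81 ± 0.29, adjusted p = 0.272). Both genes kept the arms apart, in opposite directions. Fibroblast markers had a median of -0.26, with 16 of 20 lower (80%, against 52.9% of all genes), and the median was 0.23 without current-only tumour 3. No fibroblast marker had the arms apart, against 7.28% of all genes with the earlier-only arm above and 7.13% with it below. Skeletal muscle markers had a median of 0.19 with 10 of 10 higher (100%, against 47.1% of all genes). The arms were apart for 1 of them (10%, near the 7.28% of all genes), and the median was -0.02 without earlier-only tumour 1 and current-only tumour 3.

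The passage 2 controls and the tumours treated in both periods were used to place the arms, as a description. Of the 13 higher genes named by p-value or size, the control mean lay nearer the current-only mean for 12, and of the 14 lower genes it lay nearer the earlier-only mean for 11. Over all genes with an unadjusted p under 0.05, the controls lay nearer the current-only mean for 77.1% of the 949 higher genes and for 48% of the 966 lower genes, beside 58.2% and 50.9% of all genes in each direction. Tumours treated in both periods lay nearer the earlier-only mean for 9 of the 13 and 10 of the 14. Over the genes with an unadjusted p under 0.05 these shares were 56% of the higher and 74.8% of the lower genes, beside 58% and 58.8% of all genes. The control and both-period tumours entered the filter on dim probes and the estimate of the spread, so they were not independent of the choice of these genes. Also, 1 control and 1 both-period tumour shared an array with a tumour of each arm.

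**Figure D5:**
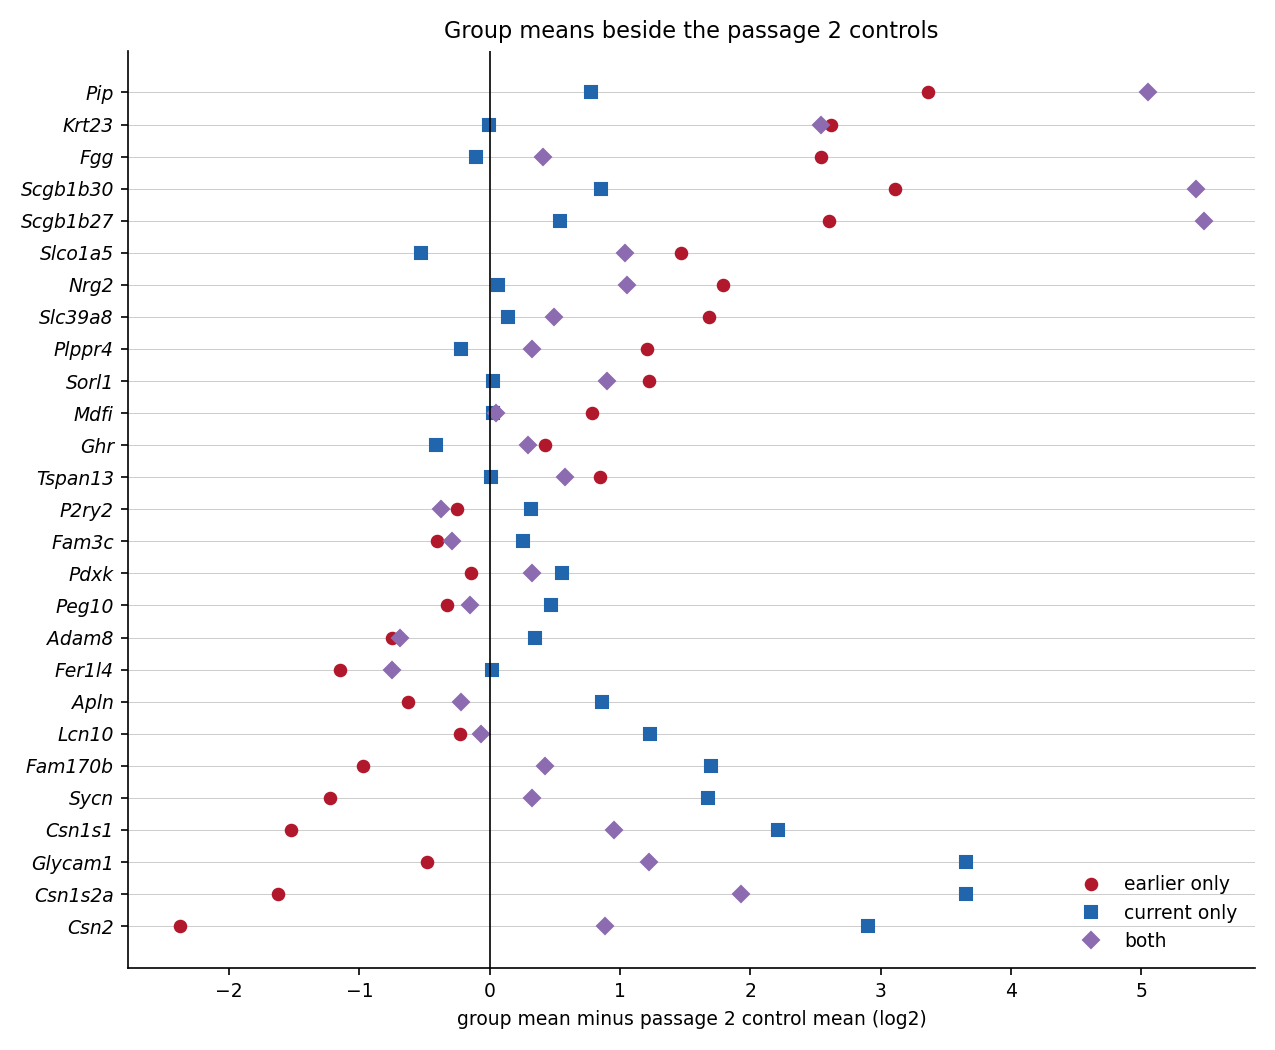
Group mean minus the passage 2 control mean (log2, horizontal axis) for the 27 genes named by p-value or size, ordered by their fitted difference. Red circles are earlier-only, blue squares current-only and purple diamonds both periods; for Pip and the secretoglobins the both-period mean lies beyond the earlier-only mean, for Krt23 it lies close to it, and for Lcn10 only the current-only mean departs from the controls.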

How the data were processed

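In all, 8 2-colour Agilent mouse arrays carried the 16 tumours, 1 RNA per dye. Per the file headers, the authors read the deposited spot intensities (median pixel signal and local background) and quality marks with Feature Extraction 10.7.3.1. The deposited log10 ratio of red over green served only to check the dye direction. The alternative with log ratios alone used ratios of the channels as normalised here. In a deposited series table, 8 value columns match no label and were not used. In R 4.3.3 with limma 3.58.1, intensities were background corrected (normexp, offset 50), loess normalised within arrays, scaled between arrays (Aquantile) and split into channels on the log2 scale. Repeat spots were averaged and outlier spots set to missing. RefSeq accessions named 28026 of 55681 probes. Probes stayed in when all tumours of 1 or more of the 6 groups had them well above background; for a gene with several such probes (25.8%), the brightest was used. The fit held 6 group means and dye over 16 channels, with the array as a block (intraspot correlation 0.179, limma's estimate of 0.374 corrected for its bias in this small design, 9 residual degrees of freedom), and Benjamini-Hochberg adjustment over 14147 genes. All p-values are two-sided and come from limma. The 8 arrays shared 1 slide and 1 scan time, so their number limits the precision. The fit was tested on simulated data. Genes were named by p-value, by size among genes with the arms apart, as RANK axis members, as the leading genes of each list, or as genes that an earlier analysis named; members and lists were chosen with earlier results of these data known. Replicate numbers follow accession order and pair nothing. Each alternative changed 1 choice: a processing step, a covariate, or which tumours entered (1 left out, a pair left out, or the passage 2 tumours or the 6 tumours alone).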

Additional observations from a re-analysis of the deposited data

How the results depend on the processing

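The count of 3 genes past the threshold (2 higher, 1 lower in earlier-only tumours) was 12 (10 and 2) without background subtraction, 11 (9 and 2) with the uncorrected intraspot correlation, and 2 with the processed signals of Feature Extraction (2 and 0), with the 11 passage 2 tumours alone (1 and 1) and with the row of the slide as a term (1 and 1), the last added after seeing the data. It was 0 in limma with probes above background in all channels (1721 genes at an unadjusted p under 0.05), without a filter on dim probes (2357), with the mean of the passing probes (1888), without a dye term (1441), in the 6 tumours alone (1188), in log ratios alone (1168), and without earlier-only tumour 1 and current-only tumour 3 together (752, added after seeing the data). The filter to probes above background in all channels removed Pip, Nrg2 and Lcn10 before the test, so they could not pass there. Leaving out 1 tumour gave 0 to 204 genes, 0 to 75 higher and 0 to 129 lower. The cause of the other changes was not tested. Pip and Lcn10 passed in 9 and Nrg2 in 8 of the 16 settings, other than leaving out 1 tumour, in which they were measured. Over all settings that measured them, adjusted p from limma ran from 0.00392 to 0.588 for Pip. It ran from 0.00485 to 0.588 for Nrg2 and from 0.00517 to 0.588 for Lcn10. Over the same settings their differences kept their sign, but the sizes depended on the setting. The differences ran from 2.421 to 4.987 for Pip, 0.9918 to 3.454 for Nrg2 and -4.422 to -1.198 for Lcn10. Median centring moved the median of all genes by 0.11 and the split at an unadjusted p under 0.05 from 949 higher and 966 lower (49.6% higher) to 943 and 368 (71.9%). Small differences changed sign. Fgfr3 was -0.0281 without background subtraction, -0.0105 with processed signals, -0.0521 at a correlation of 0, -0.06005 in the 6 tumours alone and -0.0189 without the pair of tumours, and from -0.27 to 0.26 on leaving out 1 tumour. Tfap2a was 0.00146 under quantile normalisation, 0.109 under median centring, 0.00755 with the uncorrected correlation, 0.118 in log ratios and 0.0482 without the pair, and from -0.148 to 0.053 on leaving out 1 tumour. Tfap2c was 0.0742 under median centring, 0.0247 in log ratios and 0.0854 without the pair, and from -0.31 to 0.0921 on leaving out 1 tumour. Prlr was 0.0130 under median centring. No paired analysis was possible because the tumours came from separate animals and the labels give the arms no shared replicate numbers. With 3 tumours in each arm, a difference smaller than the spread within an arm was not detectable, and dim genes such as Lcn10 give only a bound.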
